A study of Arabidopsis thaliana with 2 samples.

Results

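WUSCHEL (WUS) and its WUSCHEL-RELATED HOMEOBOX (WOX) relatives encode plant homeodomain transcription factors that keep stem cells undifferentiated and pattern embryos and organs. The nucleosomes listed at 10 of these genes are described here: WUS, WOX1, WOX2, WOX3, WOX4, WOX5, WOX8, WOX9, WOX11 and WOX13. They were picked by locus identifier from 37899 nuclear gene models, of which 27444 are protein-coding, and all 10 were found. Of 397452 listed nucleosomes, 90 were centred in a member or within 1 kb on either side, 66 of them inside the genes and 24 in the flanks.

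The list came from sequencing DNA that micrococcal nuclease (MNase), an enzyme that cuts between nucleosomes, had left protected. There were 2 libraries from whole Arabidopsis thaliana seedlings aged 2-3 weeks and grown in long days, 1 from nrpe1, which lacks normal function of the biggest RNA polymerase V subunit, and 1 from the wild-type strain Col-0. The labels name no nrpe1 allele. The list pools both genotypes without naming one for any nucleosome, so that nrpe1 was not compared with Col-0. Depth per library is unknown, there were no replicates, and every value below describes the pooled list with no test. At unknown depth a stretch without a listed nucleosome is not shown to lack nucleosomes. RNA was not measured here, and the labelled tissue could not be checked against marker genes.

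Most of these genes are known for expression in a few cells of a plant, each in its own place. WUS acts in the organizing centre of the shoot meristem, from where it sustains the stem cells above, and the peptide CLV3 that those stem cells secrete restrains WUS in return. WOX5 holds the matching position in the quiescent centre of the root, and WOX4 in the vascular cambium. WOX13 is the exception, since it is expressed widely and belongs to the oldest branch of the family. Silent developmental regulators in plants often carry Polycomb marks, and the SWI/SNF ATPase SPLAYED (SYD) is known to be needed for normal WUS expression.

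As a group the genes lay slightly under the typical protein-coding gene, and none was rich in listed nucleosomes. Their median density was 3.64 listed centres per kb of gene (interval from order statistics 1.90 to 4.14, n = 10 genes), against 4.03 per kb over all protein-coding genes (quartiles 3.05 and 5.07). WOX3, WOX8 and WOX11 lay below that lower quartile, so 3 of 10 members did where 25% of all protein-coding genes do by construction. Under the median lay 6 of the 10, with a background of 50%. None of the 10 lay above the upper quartile, where the background is likewise 25%. The count on the low side is thus near the background. Values ran in rising order from WOX11 over WOX3, WOX8, WOX5, WUS, WOX1, WOX2, WOX9 and WOX13 to WOX4. Neighbours in that order did not differ beyond their counting intervals, which are exact Poisson intervals at 95%, rest on 3 to 10 nucleosomes a gene and cover counting error only. The interval from order statistics is nominally at 95% too. It treats the genes of a list as independent draws, which chosen and related genes are not.

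**Figure D1:**
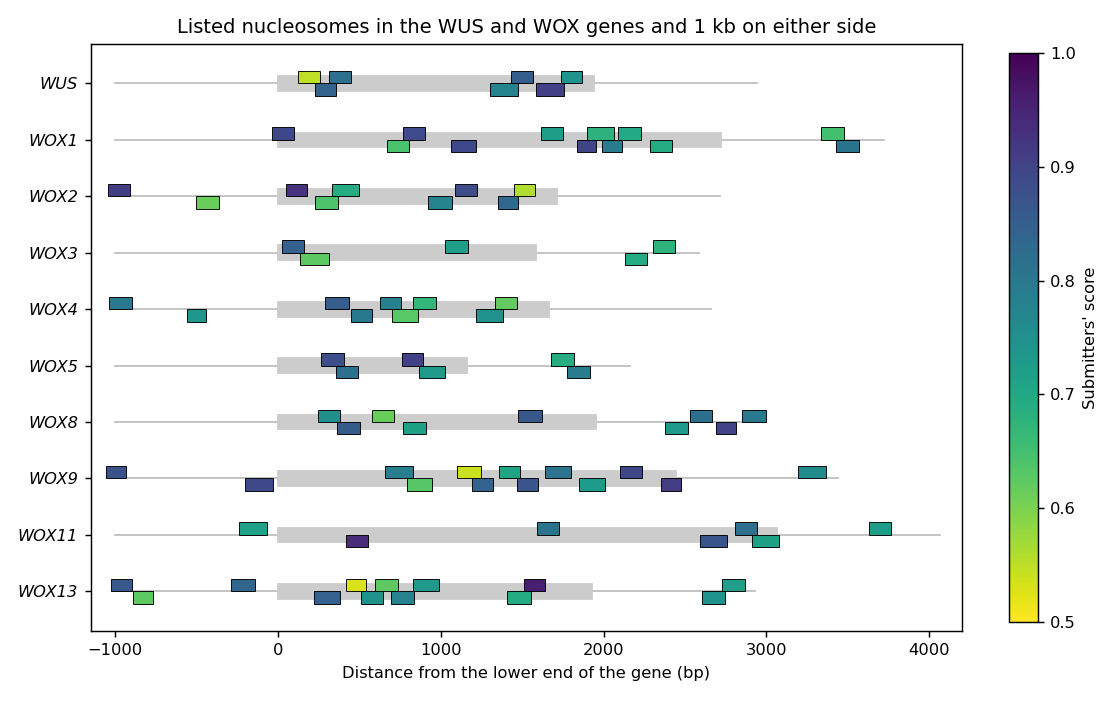
Listed nucleosomes (boxes, coloured by the submitters' score) at each gene, against the distance in bp from its end with the lower coordinate; the grey bar is the gene and the thin line its flanks of 1 kb. WUS has 7 boxes in the gene and none in its flanks, and successive boxes are shifted up and down only to show overlaps.

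**Figure D2:**
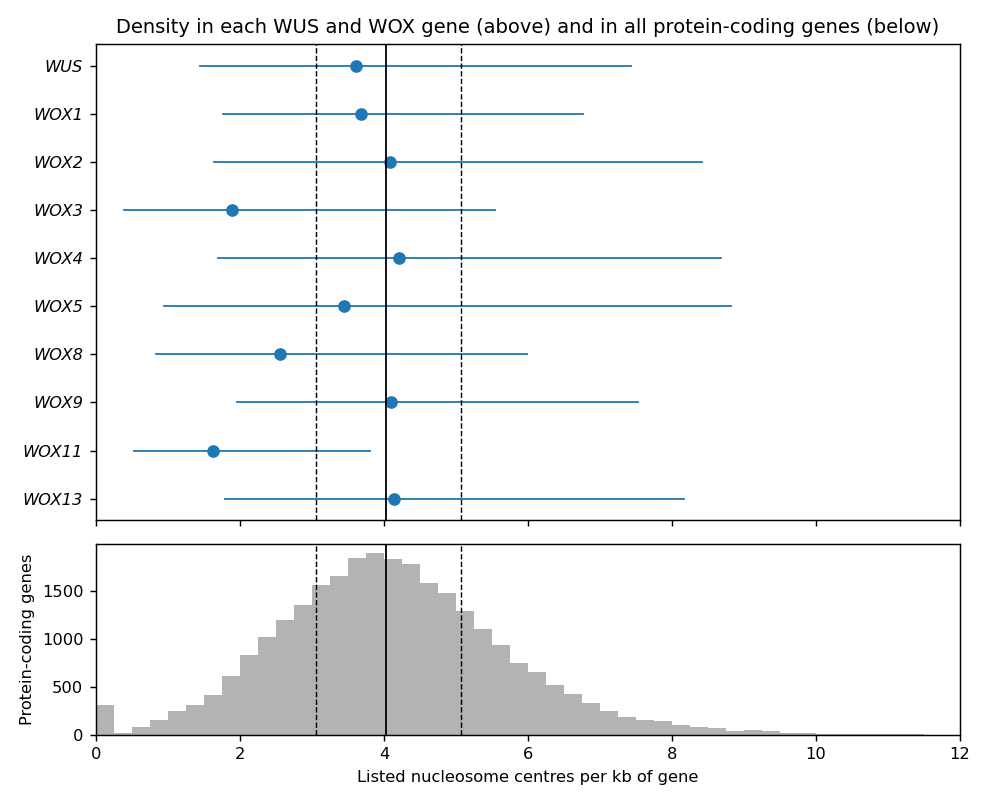
Listed centres per kb of each gene with its exact Poisson interval at 95% (above) and the number of protein-coding genes at each density (below). The solid line is the median of protein-coding genes, 4.03 per kb, and the dashed lines are the quartiles; the points of WOX3, WOX8 and WOX11 lie left of the lower quartile and no point lies right of the upper one.

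WUS (AT2G17950) lies on chromosome 2 at 7808871 to 7810811, a span of 1941 bp, and held 7 listed nucleosomes. That is 3.61 per kb (1.45 to 7.43), or 0.895 of the median of protein-coding genes, at percentile 38.5 of them. The nucleosomes stood in a pair of clusters at the ends of the gene, with none centred in the middle of 3 equal parts. The cluster at the lower coordinates had 3 nucleosomes from 7808995 to 7809322, with scores of 0.549, 0.843 and 0.814. The other had 4 from 7810176 to 7810736, with scores of 0.777, 0.852, 0.906 and 0.742. Each of the 7 overlapped a listed neighbour. A list that pools both libraries can hold alternative positions side by side.

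Between the clusters 854 bp of WUS, 44.0% of its span, were not covered by any listed interval. Among the 15162 protein-coding genes of 1161 to 3064 bp, the range of the members' lengths, an uncovered stretch of this size stands at percentile 90.5. Both flanks of 1 kb were empty as well. The nearest centre lay 1828 bp beyond the lower end and 2102 bp beyond the upper end, and no other gene model lies within 1 kb of WUS. Of all protein-coding genes 4.73% have no centre within 1 kb on either side, and among the 3751 with no other gene model in both flanks 20.9% have none. Of the 6 members with such flanks WUS was the only one without a centre there.

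WOX5 (AT3G11260), the root counterpart of WUS, lies on chromosome 3 at 3527280 to 3528440 and held 4 nucleosomes at 3.45 per kb (0.939 to 8.82), close to the density of WUS. As in WUS, each of its nucleosomes overlapped a listed neighbour, and they formed a pair of pairs. Their median score of 0.851 was the highest of the 10 genes, set against 0.788 for nucleosomes in protein-coding genes. The side of WOX5 with lower coordinates was empty, the nearest centre lying 3728 bp away. On the upper side 2 nucleosomes followed inside the next gene, AT3G11270, which starts 361 bp further on.

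WOX4 (AT1G46480), the cambium gene, lies on chromosome 1 at 17236524 to 17238185 and had the highest density of the 10 genes by centres in the gene. It held 7 nucleosomes at 4.21 per kb (1.69 to 8.68), 1.04 times the median of protein-coding genes. They covered 52.5% of its span, less than in WOX9 (53.1%) and WOX2 (53.0%), against a median of 51.2% over protein-coding genes. Only 2 of these 7 scored at or above the list median of 0.790, and its highest score was 0.854. Beyond its upper end no centre followed for 1922 bp. Counted with 1 kb on both sides, WOX1, WOX9 and WOX13 stood higher than WOX4.

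WOX1 and WOX3, also called PRESSED FLOWER, act together at the margins of leaves and floral organs, where they drive the outgrowth of the blade. Their values differed, although their counting intervals overlap. WOX1 (AT3G18010, chromosome 3, 6160733 to 6163453) held 10 nucleosomes at 3.68 per kb (1.76 to 6.76). The nucleosome at 6160694 to 6160834 lay across its lower end and was followed by 567 bp without coverage. Of the 10, 5 lay in the uppermost of 3 equal parts of the gene.

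WOX3 (AT2G28610, chromosome 2, 12262013 to 12263595) held just 3 nucleosomes, at 1.90 per kb (0.391 to 5.54), percentile 6.77 of protein-coding genes. A pair overlapped at the lower end, at 12262035 to 12262173 with a score of 0.846 and at 12262146 to 12262326 with a score of 0.624. The remaining one, at 12263039 to 12263178, scored 0.722. Listed intervals covered 27.2% of WOX3, and 713 bp between the pair and the single nucleosome were uncovered.

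Among the genes of the embryo, WOX2 marks the apical daughter of the zygote and WOX8 the basal one, while WOX9 (STIMPY) is needed for growth of the embryo and of the shoot meristem. WOX2 (AT5G59340, chromosome 5, 23933338 to 23935050) held 7 nucleosomes at 4.09 per kb (1.64 to 8.42), 1.01 times the median of protein-coding genes. Its highest score, 0.929, belonged to the nucleosome nearest its lower end, at 23933387 to 23933519.

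WOX8 and WOX9 are close relatives with overlapping functions in the early embryo, and WOX8 was the sparser of the pair. WOX8 (AT5G45980, chromosome 5, 18648886 to 18650836) held 5 nucleosomes at 2.56 per kb (0.832 to 5.98), percentile 15.6. WOX9 (AT2G33880, chromosome 2, 14341355 to 14343796) held 10 at 4.10 per kb (1.96 to 7.53), percentile 51.7. In WOX8, 4 of the 5 lay toward the lower end, and 567 bp without coverage separated them from the fifth. In WOX9 the first 656 bp from the lower end were uncovered, and from there on its 10 centres lay no more than 301 bp apart, the smallest widest step of the 10 genes. The last nucleosome of WOX9, at 14343705 to 14343832, scored 0.911 and lay across its upper end.

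WOX11 (AT3G03660), which starts adventitious roots from cut leaves, was the sparsest of the 10 genes by centres in the gene. It lies on chromosome 3 at 889166 to 892229, is the longest member with 3064 bp, and held 5 nucleosomes at 1.63 per kb (0.530 to 3.81). That is 0.405 of the median of protein-coding genes and percentile 4.79 of them. The upper limit of its counting interval lay under that median, which held for no other member. Coverage was 22.9%, and the longest uncovered stretch, 1034 bp, stands at percentile 95.3 among protein-coding genes of the members' lengths. Its few nucleosomes were not low in score, since 4 of 5 scored at or above the list median and the one at 889585 to 889720 reached 0.936. With only such scores counted, WOX3 (0.322), WOX8 (0.522), WOX13 (0.527) and WOX4 (0.613) stood lower than WOX11 (0.664). So did WOX3 (0.445 against 0.460) when overlapping calls were dropped. These values are ratios to the median of protein-coding genes.

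WOX13 (AT4G35550), the widely expressed member, lies on chromosome 4 at 16875521 to 16877451. By centres in the gene it lay within the range of the other members. It held 8 nucleosomes at 4.14 per kb (1.79 to 8.16), 1.03 times that median, and lay between the values of WOX9 and WOX4. Of these, 5 formed a chain in which each overlapped the next, from 16875940 to 16876512. WOX13 held both the lowest and the highest score of the 66 nucleosomes, 0.527 at 16875940 to 16876061 and 0.956 at 16877035 to 16877161. It was the only member that overlaps another gene, AT4G35540 at its lower end, and it had the most flank nucleosomes, 5. Without WOX13 the median of the other genes was 3.61 per kb.

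What the 66 nucleosomes inside the genes shared with those elsewhere was their size, their scores and their closest spacing. Interval lengths lay between 121 and 180 bp, and their median of 138 bp was that of the whole list. The median score was 0.782, against 0.788 for nucleosomes in protein-coding genes, and 32 of 66 (48.5%) reached the list median. Overlaps with a listed neighbour were found for 45 of 66 (68.2%), against 62.4% in protein-coding genes. Neighbouring centres lay a median of 162 bp apart (56 distances), against 155 bp over protein-coding genes, and 26.8% of the distances fell between 150 and 240 bp, the range of one nucleosome and its linker, against 27.5%.

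Long steps between centres made up a larger share. Of the 56 distances between neighbouring centres 9 passed 500 bp (16.1%), against 6.74% over protein-coding genes of all lengths. They occurred in 7 of the 10 genes, with 2 each in WOX11 and WOX1 and 1 each in WUS, WOX2, WOX3, WOX8 and WOX13. The widest were 1171 and 1019 bp in WOX11, 1007.5 bp in WUS and 872.5 bp in WOX3. The longest uncovered stretch per gene had a median of 567 bp over the members, against 407 bp over protein-coding genes of their lengths. In 4 of 10 members (WUS, WOX3, WOX9 and WOX11) it passed the upper quartile of 602 bp, where the background is 24.9%. In WUS, WOX3 and WOX11 this stretch lay inside a long step counted above, so that these values are not independent. The middle of 3 equal parts of the gene held 25.8% of the members' nucleosomes, against 35.4% in protein-coding genes of these lengths, and WUS and WOX3 had none there. Exons and introns are not in the gene table used, so whether these breaks fall in introns was not tested.

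The surroundings of the genes were thinly listed, and most of them hold no other gene. The 20 flanks of 1 kb held 24 centres, 1.20 per kb, against 2.43 per kb in the flanks of all protein-coding genes. Of the members' flanks 16 of 20 (80.0%) are free of other gene models, whereas 33.1% of flanks of all protein-coding genes are. In such free flanks the members held 0.813 centres per kb, against 1.03 per kb over all free flanks, and 8 of 16 were empty where the background is 43.2%. The remaining 11 flank nucleosomes all lay inside a neighbouring gene. By gene, WOX8 had 4 in the gene AT5G45990 beyond its upper end, WOX13 had 3 in AT4G35540, WOX5 had 2 in AT3G11270 and WOX3 had 2 in the non-coding RNA gene AT2G08270. None of the 10 genes lies in a gene-poor window of 500 kb, one with under 50% of the median count of protein-coding genes per window of its chromosome.

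**Figure D3:**
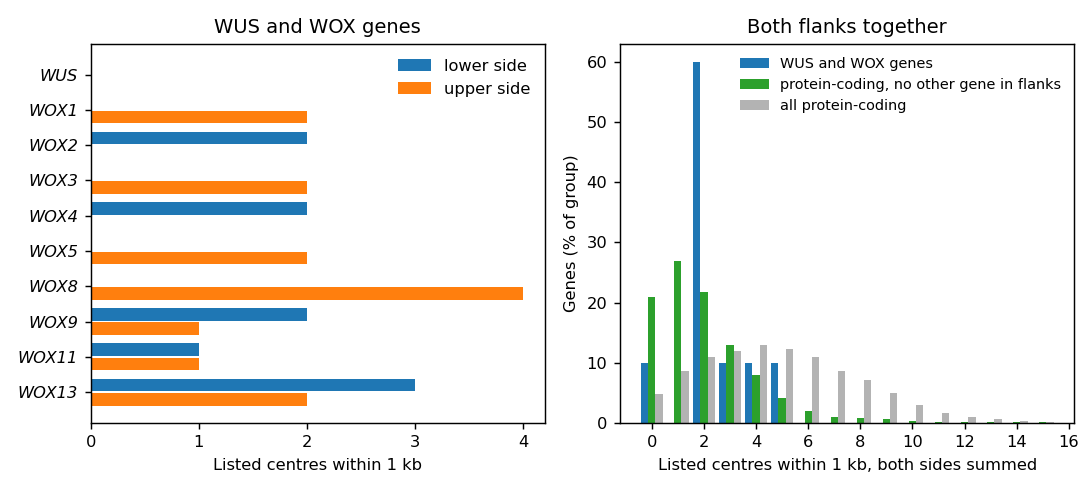
Listed centres within 1 kb on the side with lower and with upper coordinates of each gene (left), and the share of genes at each flank total in percent (right) for the 10 genes, for protein-coding genes with no other gene in both flanks and for all protein-coding genes. WUS has 0 on both sides, and totals of 2 are the most frequent among the 10 genes.

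Counting the gene together with 1 kb on both sides put 6 of 10 members (WUS, WOX2, WOX3, WOX5, WOX8 and WOX11) below the lower quartile, with a background of 25%. The members' median was then 2.35 per kb, against 3.20 per kb for all protein-coding genes. Set against genes whose flanks hold no other gene model, a comparison added after seeing the data, this was no longer so. The 6 members with such flanks had a median of 2.44 per kb, against 2.35 per kb over the 3751 genes of that kind, and 1 of the 6 was below their lower quartile. This comparison changed the members as well as the background, since WOX3, WOX5, WOX8 and WOX13 dropped out. Of the 6 kept, WUS, WOX2 and WOX11 had been below the lower quartile of all protein-coding genes.

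WOX3, WOX8 and WOX11 lay below the lower quartile under all 7 ways of counting that were tried, and WOX1 and WOX9 under none of them. Counting any overlap or comparing with genes of the members' lengths left each member's count as by centres, and only the background changed. Dropping overlapping calls put WUS, WOX5 and WOX13 below the lower quartile as well. When nucleosomes were taken in order of falling score and any that overlapped one already taken was dropped, WUS kept 3 of its 7 and stood at 0.544 of the median of protein-coding genes. WOX5 kept 2 of its 4 and stood at 0.607, and WOX13 kept 4 of its 8 and stood at 0.730. With nucleosomes scoring at or above the list median, WUS stood at 1.05 times and WOX5 at 1.32 times that median, whereas WOX4 stood at 0.613 and WOX13 at 0.527.

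**Figure D4:**
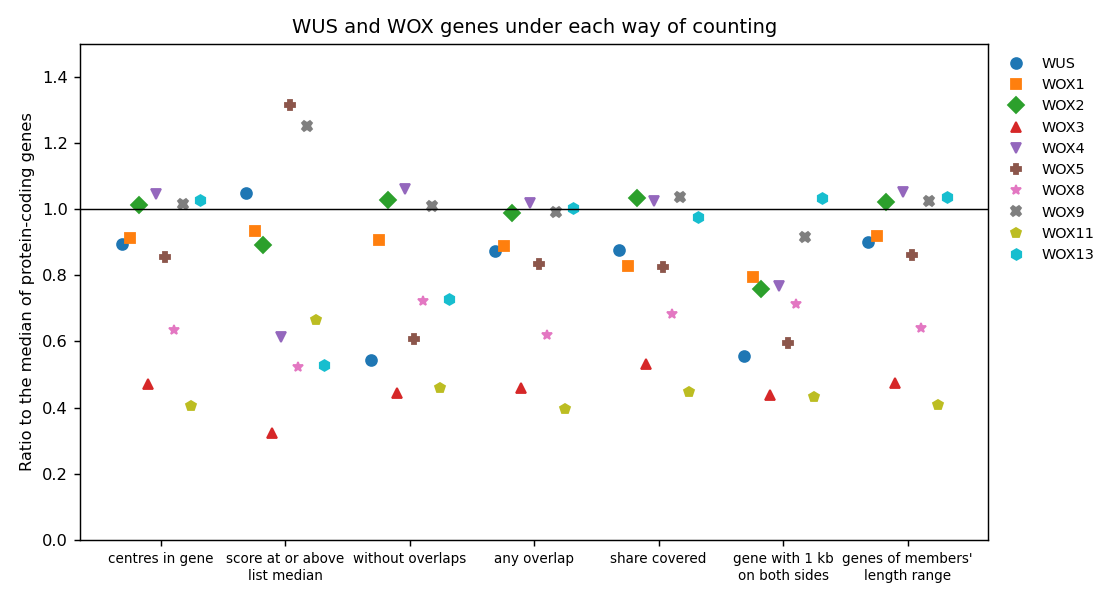
Ratio of each gene to the median of protein-coding genes under 7 ways of counting (columns, spread sideways so that points can be told apart); the line marks a ratio of 1. WOX1, WOX3, WOX8 and WOX11 stay below the line in every column, while WUS lies at 0.895 by centres in the gene and at 0.544 without overlapping calls.

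Densities of the 10 members ran from 1.63 to 4.21 per kb, and those of the 5 other WOX genes from 1.15 to 7.66 per kb. Of these 5, 2 lay below the lower quartile and 2 above the upper one, with a background of 25% for each. The lowest was WOX12 (AT5G17810), which acts with WOX11 in root initiation. It held 5 nucleosomes at 1.15 per kb (0.373 to 2.68), percentile 2.50, with 2157 bp uncovered. Hence WOX12 and WOX11, a pair of close relatives, had the lowest values of all 15 family members by centres in the gene. The highest was WOX10 (AT1G20710) with 6 nucleosomes at 7.66 per kb (2.81 to 16.7), a gene of 783 bp. For short genes such as this a single nucleosome moves the density far. WOX14 (AT1G20700), its neighbour on chromosome 1 and like WOX10 a relative of WOX13, had 2.67 per kb, while WOX7 (AT5G05770), the near relative of WOX5, had 6.99 per kb from 3 nucleosomes in 429 bp. Over all 15 genes the median was 3.61 per kb, with 5 below the lower and 2 above the upper quartile, against the same background of 25% for each.

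Genes that act with WUS and WOX5 in stem cell niches had a higher median. It was 3.64 per kb in the 10 members (interval from order statistics 1.90 to 4.14). In the 20 genes of the CLAVATA, cytokinin and root niche list, not matched in length, it was 4.86 per kb (4.02 to 5.43). By role it ran from 2.02 per kb in the 3 cytokinin genes to 5.22 per kb in the 4 root niche transcription factors. Of these 20, 7 lay above the upper quartile and 2 below the lower one, where the background is 25% for each. The highest was ACR4 (AT3G59420), a receptor kinase that restrains stem cells of the root cap, with 25 nucleosomes at 7.07 per kb. The lowest were the cytokinin response regulators ARR15 (AT1G74890) at 1.90 per kb and ARR7 (AT1G19050) at 2.02 per kb, both known as targets that WUS represses. CLV3 (AT2G27250) had 3.66 per kb and its receptor CLV1 (AT1G75820) 4.13 per kb. The WUS partners HAM1 (AT2G45160), HAM2 (AT3G60630) and HAM3 (AT4G00150) had 5.02, 6.19 and 6.79 per kb, HAM1 lying between the quartiles. SYD (AT2G28290) held 82 nucleosomes at 4.80 per kb.

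KNOX genes are another homeobox family, here 4 genes of class I, among them STM, and 4 of class II. The median was 2.93 per kb in class I and 3.09 per kb in class II, with 3 and 2 genes below the lower quartile (background 25%). The WOX members had a median of 3.64 per kb with a range of 1.63 to 4.21, and the 8 KNOX genes a median of 2.93 per kb with a range of 2.77 to 3.76. Of the KNOX genes 5 lay below the lower quartile and none above the upper one, with a background of 25% for each. All 8 were below the median of protein-coding genes, as were 6 of the 10 WOX members, where the background is 50%. STM (AT1G62360), which keeps the meristem undifferentiated alongside WUS, had 3.73 per kb, close to the 3.61 per kb of WUS. The lowest was KNAT6 (AT1G23380) of class I with 15 nucleosomes at 2.77 per kb. The highest was KNAT3 (AT5G25220) of class II with 10 at 3.76 per kb. Whether these lists differ from each other was not tested.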

How the data were processed

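Per the labels' protocols, MNase-digested DNA was size-selected on a gel. Per the submitters' processing notes, Bowtie and TAIR10 were used. The sources used here do not give the Bowtie version, the nucleosome caller, the score's definition or how libraries were pooled. The deposited list has a chromosome, start, end and score per nucleosome, per the file headers, and 0 columns hold values of single samples. The score was used only to rank.

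A nucleosome was assigned to a gene by the midpoint of its interval. Gene spans are those of RefSeq, assembly TAIR10.1, in a table that gives neither strand nor exons, so sides are named by lower and upper coordinates. Nucleosome coordinates are printed as listed. Density was listed centres per kb, set against all protein-coding genes. Percentiles are ranks, not p-values. The design named promoter motifs and proteins, which were not analysed here.

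Named genes were all 10 members, with the lowest and the highest gene of each list beside them. WOX7, WOX14, ARR7, CLV1, CLV3, HAM1, HAM2, HAM3, SYD and STM were added to the text with their values known. Members and lists were chosen with earlier results of these data known. Counting was tested on simulated data. Calculations used Python 3.11.15, numpy 2.4.6, pandas 2.3.3 and scipy 1.17.1.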

Additional observations from a re-analysis of the deposited data

How the results depend on the processing

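Of the results over all members, 23 alternative values stayed within their interval or within 1.5 times the count, and 8 did not. The number of members below the lower quartile, 3 by centres in the gene, became 5 when only scores at or above the list median counted (WOX3, WOX4, WOX8, WOX11 and WOX13), 6 without overlapping calls (WUS, WOX3, WOX5, WOX8, WOX11 and WOX13) and 6 with 1 kb on both sides. With 1 kb on both sides it was 1 of 6 where only genes with flanks free of other gene models were compared. The background was 25% each time. Density in the upper flank, 1.40 per kb, became 0.200 in flanks of 500 bp and 0.50 among nucleosomes scoring at or above the list median. The median spacing of 162 bp became 274.5 bp without overlapping calls (249 bp over protein-coding genes) and 351 bp among nucleosomes scoring at or above the list median (285 bp), both of which remove nucleosomes by construction. The cause of the other shifts was not tested. The members' median relative to protein-coding genes lay between 0.726 and 0.910, except where only genes with flanks free of other gene models were compared. There the 6 members had a median of 2.44 per kb with 1 kb on both sides, against 2.35 per kb. Each of 60 alternative values for single genes stayed inside its counting interval, and these intervals are wide because a gene holds 3 to 10 nucleosomes. The values by any overlap and by genes of the members' lengths rest on the same counts as the main ones. Settings on flanks without other gene models were added after seeing the data. No paired analysis was possible because the list pools both libraries.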
